A study of Homo sapiens with 2 samples.

Results

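The 53 genes described here encode the machinery of mitosis: the kinases and cyclins that start it, the spindle and its motors, the kinetochores that tie chromosomes to it, the condensins that fold them, and the proteins that pull sister chromosomes apart and split the cell. They were taken by name from a list of G2/M, kinetochore, spindle, condensin and cytokinesis genes, and all 53 were matched by Ensembl identifier among the 60774 identifiers deposited. RNA-seq was done on MDA-MB-231 cells, a human triple-negative breast cancer line with a mesenchymal form. The OE-YWHAB library came from cells labelled as over-expressing YWHAB, which encodes the adaptor protein 14-3-3 beta, and the Vector Control library from cells carrying a vector. Each group is 1 library with no replicate, so no test was run, and a difference between these libraries is not shown to be a difference between the conditions. The labels do not state whether the over-expressing cells are a clone or a pool. Their protocol fields also hold text on fat cell differentiation and on retinas, which was not taken as fact for this line.

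Most mitotic genes are transcribed late in the cell cycle. The factors B-Myb and FOXM1 act with the MuvB complex at a short promoter element called the CHR (cell cycle genes homology region), and the transcripts are kept low in cells that are not dividing. Amounts of these RNAs in a culture therefore track the share of cells near mitosis. In bulk RNA, more cells in this phase and more RNA in each of them cannot be told apart. 14-3-3 proteins are known in this setting for holding phosphorylated CDC25 phosphatases away from CDK1.

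Worked out from the steps of the deposited values, the fragment totals were 13810668 for the OE-YWHAB library and 12375999 for the Vector Control library. Values are FPKM (fragments per kilobase of gene length, scaled to the fragment total of the library), and a difference is log2(FPKM + 1) in OE-YWHAB minus that in Vector Control. YWHAB itself was at 336 FPKM in OE-YWHAB and 239 FPKM in Vector Control, a ratio of 1.41 (95% counting interval 1.36 to 1.45), so the direction matched the label. An interval above equal levels was found for 27.8% of the 13420 genes compared, so this is a weak check of the label. The hormone receptor genes ESR1 and PGR had 1 and 0 fragments in OE-YWHAB and 7 and 1 fragments in Vector Control. The luminal list they belong to summed to 560.1 FPKM in OE-YWHAB and 471 FPKM in Vector Control, nearly all of it the keratin KRT19 at 551 FPKM in OE-YWHAB and 460.4 FPKM in Vector Control, while vimentin (VIM), a mesenchymal marker, was at 861 FPKM in OE-YWHAB and 736 FPKM in Vector Control. All 8 mesenchymal breast line markers passed the filter of a mean of at least 1 FPKM, as did 4 of 8 luminal, 1 of 8 leukocyte and 5 of 10 endothelial and fibroblast markers. The leukocyte list summed to 3.75 FPKM in OE-YWHAB and 4.89 FPKM in Vector Control, and the endothelial and fibroblast list to 52.8 FPKM in OE-YWHAB and 58.3 FPKM in Vector Control. No retina marker of 10 passed. Of 10 fat cell markers, LPL and PPARG passed, and 3, among them ADIPOQ and LEP that define mature fat cells, had no fragment in either library. The list summed to 22.3 FPKM in OE-YWHAB and 30.4 FPKM in Vector Control.

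Nearly all mitotic genes stood slightly to moderately higher in the OE-YWHAB library, and few stood far higher. Together they took 1.02% of the fragments in OE-YWHAB and 0.777% in Vector Control. Of the 53 genes, 51 passed the filter. Their median difference was 0.36, against 0.03 over all 13420 genes compared. Only 2 of the 51, CDK1 and TTK, had a negative difference. At least 2-fold higher was 1 member, MKI67, where 0.686% of all genes compared were, and 0 members were 2-fold lower, where 1.97% of all genes were. The 95% counting interval of the ratio (exact binomial, covering counting error only) lay above equal levels for 44 members, included them for 7 and lay below for 0. Over all genes compared the interval lay above for 27.8% and below for 21.8%. Members are well covered, and among the 8676 genes with at least the 352 fragments that HMMR, the shallowest measured member, had over both libraries, it lay above for 36.7% and below for 25.1%. The ratio reached 1.5 in 10 members and in 7.76% of all genes, and 0 members were as far in the other direction, where 9.44% of all genes were.

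**Figure D1:**
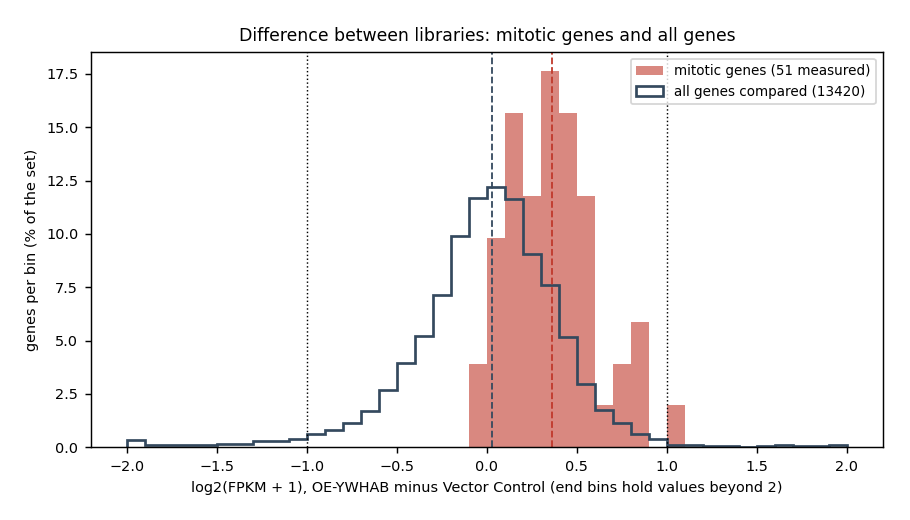
Share of genes (vertical axis, percent of each set) by difference in log2(FPKM + 1), OE-YWHAB minus Vector Control (horizontal axis), for the 51 measured mitotic genes (filled) and all 13420 genes compared (outline). Dashed lines mark the medians of 0.36 and 0.03 and dotted lines a 2-fold difference, and the end bins hold values beyond 2; the mitotic genes form a narrow group to the right of the bulk of genes.

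The difference was spread over most of the group rather than held by a few members. Of the 51 measured members, 48 lay above the median of all genes, 36 above their 75th percentile of 0.25 and 17 above their 90th percentile of 0.45. The members' own 25th percentile was 0.18 and their 75th was 0.50. The order of the members by level was nearly the same in both libraries (Spearman rho 0.98 across genes, which are not independent replicates). In both libraries TOP2A was the highest by FPKM, NCAPD2 and UBE2C came next, and HMMR was the lowest of the measured members. The plot of levels by role shows that members with low or middle levels were further apart than the most abundant ones. Across the 51 genes the difference was smaller where the level in Vector Control was higher (Spearman rho -0.44, a description in which the level also enters the difference).

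**Figure D2:**
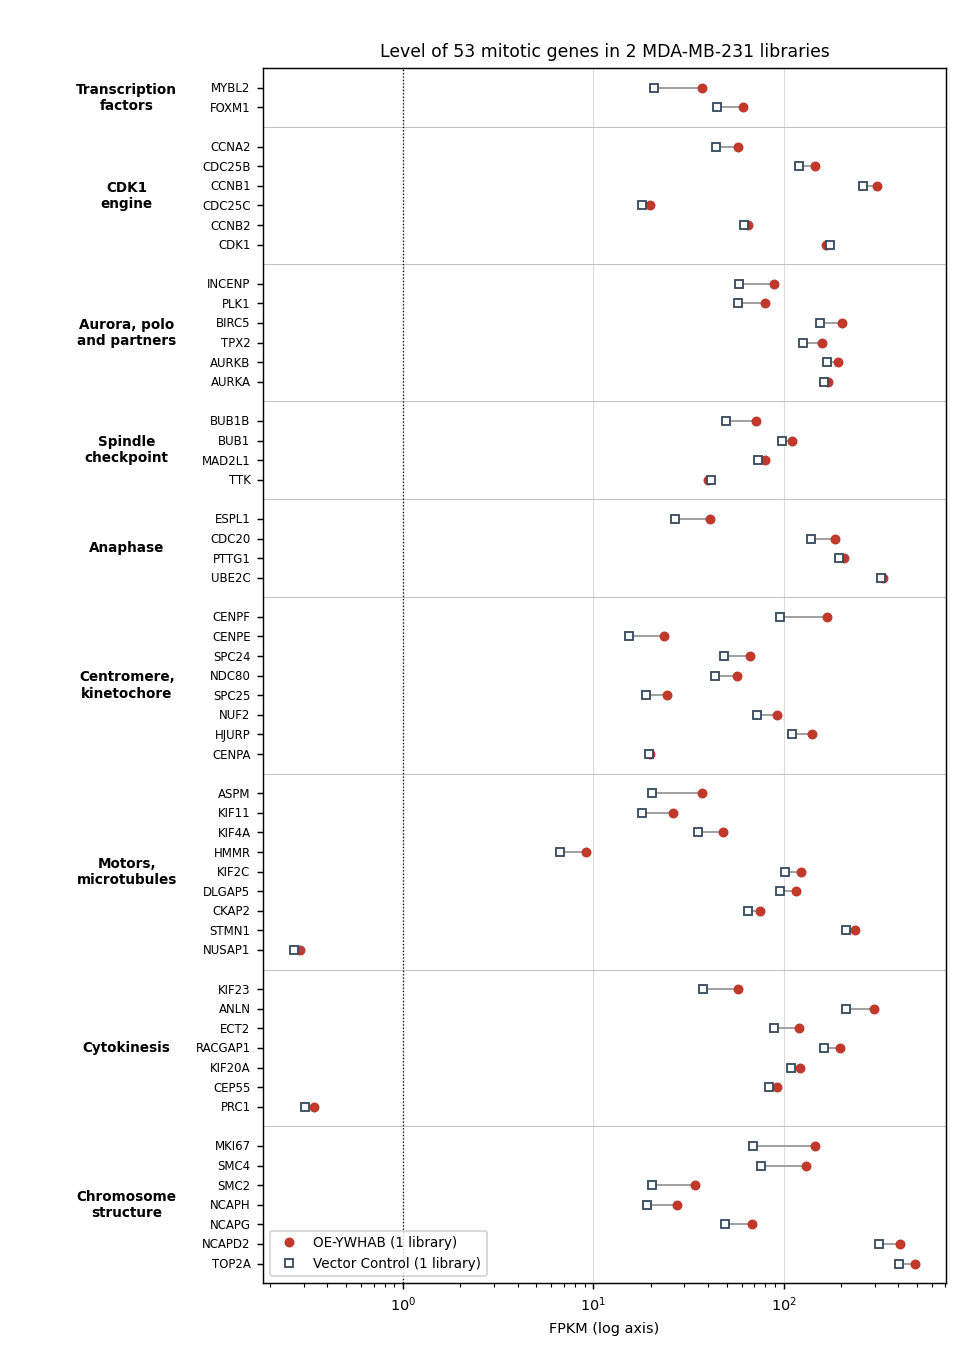
FPKM (horizontal log axis) of each of the 53 mitotic genes, grouped by role, in the OE-YWHAB library (filled circles) and the Vector Control library (open squares), 1 library each. The circle lies right of the square for all but CDK1 and TTK, and NUSAP1 and PRC1 lie below the dotted line at 1 FPKM in both libraries.

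The CHR was more frequent in mitotic gene promoters than in those of all genes compared. Genes of this class are known for this element, so this describes the list and not a difference between the libraries. RefSeq promoters (GRCh38.p14, the 250 bases before each annotated start) were matched by symbol for 46 of the 53 genes; AURKA, BIRC5, FOXM1, RACGAP1, TPX2, TTK and UBE2C were not matched. The CHR, searched as TTTGAA or TTCGAA on both strands, was found in 27 of the 46 (58.7%), against 13.3% of 9496 matched genes compared and 14.3% of all 35116 promoters. In the 100 bases next to the start it was found in 19 members (41.3%), against 4.26% of the matched genes and 4.92% of all promoters. The CCAAT box, the NF-Y site (CCAAT, both strands), was in 35 members (76.1%) and 41.8% of the matched genes. In 23 members a CHR and a CCAAT box lay on the same promoter, where 5.31% of the matched genes have both. A GC box (GGGCGG, both strands) was in 76.1% of members and 75.7% of matched genes, a TATA box (TATAAA, both strands) in 6.52% of members and 7.62% of matched genes. An E2F motif (TTTCCCGC, or TTTGGCGC, or TTTCGCGC, or TTTGCCGC, both strands) was in 8.70% of members and 5.69% of matched genes. A match is a run of letters and not a proven site. Only these exact letters before the start were searched, so a promoter without a match may still hold an element.

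The last 120 bases before the start are printed for 10 members picked after the matches and the differences were seen, to show promoters with and without the elements at both ends of the range, 5′ to 3′ in the direction of the gene, with CHR and CCAAT matches in capitals (matches on the other strand are capitalised as they read on this one). MKI67, ASPM, INCENP, KIF23, ESPL1 and PLK1 ranked 1, 2, 8, 9, 7 and 15 by difference and were picked for holding both elements in this stretch; SMC4, SMC2 and CENPE, ranked 5, 6 and 10, are not printed. The last CHR and CCAAT matches of MKI67 share a base.
MKI67 at chr10:128126424-128126543 on the minus strand: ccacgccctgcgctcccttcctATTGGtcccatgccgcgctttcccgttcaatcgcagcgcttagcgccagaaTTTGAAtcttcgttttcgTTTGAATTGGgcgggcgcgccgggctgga
ASPM at chr1:197146670-197146789 on the minus strand: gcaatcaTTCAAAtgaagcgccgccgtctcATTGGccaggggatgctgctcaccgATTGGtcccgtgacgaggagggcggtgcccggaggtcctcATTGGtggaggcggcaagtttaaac
INCENP at chr11:62123891-62124010 on the plus strand: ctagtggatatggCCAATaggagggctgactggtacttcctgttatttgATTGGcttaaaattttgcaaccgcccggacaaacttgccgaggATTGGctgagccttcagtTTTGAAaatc
KIF23 at chr15:69414229-69414348 on the plus strand: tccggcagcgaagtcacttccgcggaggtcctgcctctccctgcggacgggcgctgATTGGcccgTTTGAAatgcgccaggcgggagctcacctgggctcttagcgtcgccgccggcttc
ESPL1 at chr12:53268179-53268298 on the plus strand: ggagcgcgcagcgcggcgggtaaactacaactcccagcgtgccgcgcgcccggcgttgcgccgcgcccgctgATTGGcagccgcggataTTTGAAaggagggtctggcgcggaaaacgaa
PLK1 at chr16:23678769-23678888 on the plus strand: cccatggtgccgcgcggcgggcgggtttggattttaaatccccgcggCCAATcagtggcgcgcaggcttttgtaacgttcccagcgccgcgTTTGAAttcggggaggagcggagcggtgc
CCNB2 and CDK1 carry the same pair of elements, yet the ratio of each was within counting error of equal levels. CDK1 has 2 annotated starts, and the stretch before one of them is shown.
CCNB2 at chr15:59105026-59105145 on the plus strand: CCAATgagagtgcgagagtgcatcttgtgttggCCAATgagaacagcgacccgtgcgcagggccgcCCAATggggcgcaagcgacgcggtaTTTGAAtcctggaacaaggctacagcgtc
CDK1 at chr10:60778358-60778477 on the plus strand: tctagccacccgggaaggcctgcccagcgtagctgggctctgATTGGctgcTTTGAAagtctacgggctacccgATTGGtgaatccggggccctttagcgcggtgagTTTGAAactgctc
CENPF and MYBL2, with the 4th and 3rd largest differences, have no match to the CHR letters in the 250 bases. MYBL2 has no CCAAT match there either. A missing match does not show that the element is absent.
CENPF at chr1:214603075-214603194 on the plus strand: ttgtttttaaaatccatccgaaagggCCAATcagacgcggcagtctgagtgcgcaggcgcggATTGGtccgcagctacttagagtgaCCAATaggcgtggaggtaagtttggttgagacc
MYBL2 at chr20:43666994-43667113 on the plus strand: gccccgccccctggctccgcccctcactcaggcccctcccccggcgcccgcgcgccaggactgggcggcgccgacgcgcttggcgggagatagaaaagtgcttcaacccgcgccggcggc

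The members with and without a CHR overlapped widely in their differences. The median difference was 0.42 in the 26 measured members with a CHR in the 250 bases and 0.31 in the 18 without. For the 100 bases next to the start it was 0.47 in 18 members with and 0.35 in 26 without. For the CCAAT and GC boxes in the 250 bases members with a match had the lower median, with 0.35 in 33 members with a CCAAT box and 0.49 in 11 without, and 0.35 in 34 members with a GC box and 0.48 in 10 without. The E2F motif and the TATA box were in 3 and 2 measured members. No test was made of these medians. With a CHR match the members run from CDK1 at -0.06 to MKI67 at 1.08, and CENPF at 0.81 has no match.

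The transcription factors of the programme were both higher. MYBL2 (ENSG00000101057, chromosome 20, from 43667019 to 43716496, plus strand), which encodes B-Myb, was at 37.2 FPKM in OE-YWHAB and 20.8 FPKM in Vector Control, from 1381 fragments in OE-YWHAB and 690 in Vector Control. Its ratio was 1.79 (counting interval 1.64 to 1.97), and 1.602% of all genes had a difference as large. FOXM1, the forkhead factor that carries G2 genes into mitosis, was at 61.4 FPKM in OE-YWHAB and 44.4 FPKM in Vector Control (ratio 1.38, interval 1.28 to 1.49). FOXM1 shares 15.9% of its exon bases with ITFG2 on the opposite strand, and whether fragments were assigned by strand is not given in the sources used here.

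The CDK1 engine that drives entry into mitosis differed least along with the spindle checkpoint, with a median of 0.19 over 6 genes. CDK1 (ENSG00000170312, chromosome 10, from 60778331 to 60794852, plus strand), the kinase itself, was at 167 FPKM in OE-YWHAB and 174 FPKM in Vector Control (ratio 0.961, interval 0.914 to 1.01). CCNB1, its main mitotic cyclin, was at 310.0 FPKM in OE-YWHAB and 261 FPKM in Vector Control (ratio 1.19, interval 1.13 to 1.24). CCNB2, the other B-type cyclin, was at 65.0 FPKM in OE-YWHAB and 61.6 FPKM in Vector Control (ratio 1.06, interval 0.968 to 1.15). The kinase and CCNB2 were thus equal within counting error, and CCNB1, which made up 82.7% of the B-type cyclin FPKM in OE-YWHAB and 80.9% in Vector Control, was slightly higher. CCNA2, the cyclin of S phase and G2, was at 57.3 FPKM in OE-YWHAB and 44.2 FPKM in Vector Control (ratio 1.30, interval 1.21 to 1.38). The phosphatase CDC25B, which activates CDK1, was at 145.6 FPKM in OE-YWHAB and 119.8 FPKM in Vector Control (ratio 1.22, interval 1.16 to 1.27). CDC25C, the phosphatase best known as a 14-3-3 partner, was at 19.9 FPKM in OE-YWHAB and 18.01 FPKM in Vector Control (ratio 1.10, interval 0.950 to 1.28), a difference within counting error.

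Among the Aurora and polo kinases and their partners, the scaffold INCENP and PLK1 were furthest apart and the Aurora kinases themselves least. PLK1, the polo-like kinase, was at 80.1 FPKM in OE-YWHAB and 57.3 FPKM in Vector Control (ratio 1.40, interval 1.28 to 1.53). AURKA, the kinase of the spindle poles, was at 172 FPKM in OE-YWHAB and 162 FPKM in Vector Control (ratio 1.06, interval 1.01 to 1.11), and its activator TPX2 was at 158 FPKM in OE-YWHAB and 126 FPKM in Vector Control (ratio 1.26, interval 1.21 to 1.30). The chromosomal passenger complex, which corrects faulty attachments, combines the kinase AURKB with INCENP, survivin (BIRC5) and borealin (CDCA8). Its parts differed by unequal ratios. INCENP was at 89.1 FPKM in OE-YWHAB and 58.5 FPKM in Vector Control (ratio 1.52, interval 1.42 to 1.63). AURKB was at 193 FPKM in OE-YWHAB and 169.5 FPKM in Vector Control (ratio 1.14, interval 1.07 to 1.21), an interval that does not reach that of INCENP. The gap of 0.42 between their differences was 0.26 after a correction for length and GC content. BIRC5 was at 202 FPKM in OE-YWHAB and 155 FPKM in Vector Control (ratio 1.30, interval 1.23 to 1.37). CDCA8, named here as the remaining subunit, was at 36.2 FPKM in OE-YWHAB and 27.4 FPKM in Vector Control (ratio 1.32, interval 1.21 to 1.45). INCENP made up 17.1% of the summed FPKM of the genes of the complex in OE-YWHAB and 14.2% in Vector Control. AURKB made up 37.0% in OE-YWHAB and 41.3% in Vector Control. Such shares, here and for the B-type cyclins and the NDC80 complex, depend on the length used for each gene.

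The spindle checkpoint genes, which hold cells in metaphase until all chromosomes are attached, had the lowest median of the 9 roles, 0.15 over 4 genes. BUB1B, encoding the inhibitor BubR1, was the exception, at 71.1 FPKM in OE-YWHAB and 49.8 FPKM in Vector Control (ratio 1.43, interval 1.30 to 1.57). The kinase BUB1 was at 111 FPKM in OE-YWHAB and 97.8 FPKM in Vector Control (ratio 1.13, interval 1.07 to 1.20). MAD2L1, encoding MAD2, was at 79.7 FPKM in OE-YWHAB and 72.7 FPKM in Vector Control (ratio 1.10, interval 1.02 to 1.17). TTK, the kinase MPS1 at the top of the checkpoint, was at 40.2 FPKM in OE-YWHAB and 41.5 FPKM in Vector Control (ratio 0.967, interval 0.870 to 1.08). The interval of BUB1B does not reach those of the other 3.

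Of the anaphase genes, ESPL1 and CDC20 stood higher, while the counting intervals of PTTG1 and UBE2C included equal levels. ESPL1 encodes separase, the protease that cuts cohesin, and was at 41.1 FPKM in OE-YWHAB and 26.7 FPKM in Vector Control (ratio 1.54, interval 1.42 to 1.66). PTTG1 encodes securin, the inhibitor of separase, and was at 207 FPKM in OE-YWHAB and 194 FPKM in Vector Control (ratio 1.06, interval 0.999 to 1.13). The intervals of protease and inhibitor do not meet, but the gap of 0.52 between their differences was 0.20 after the length and GC correction. CDC20, which activates the anaphase-promoting complex, was at 185 FPKM in OE-YWHAB and 139 FPKM in Vector Control (ratio 1.33, interval 1.26 to 1.41). UBE2C, the ubiquitin-conjugating enzyme of that complex, was at 332 FPKM in OE-YWHAB and 325 FPKM in Vector Control (ratio 1.02, interval 0.969 to 1.08). The processed copy CDC20P1 shares 7.68% of the 50-base stretches of CDC20.

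Centromere and kinetochore genes had a median of 0.38 over 8 genes, with CENPF at the top and CENPA level. CENPF (ENSG00000117724, chromosome 1, from 214603195 to 214664588, plus strand), a large coiled-coil protein of the outer kinetochore, was at 168 FPKM in OE-YWHAB and 95.4 FPKM in Vector Control (ratio 1.76, interval 1.68 to 1.84). CENPE, the kinetochore kinesin, was at 23.5 FPKM in OE-YWHAB and 15.4 FPKM in Vector Control (ratio 1.52, interval 1.39 to 1.67). CENPA, the histone variant that marks centromeres, was at 19.7 FPKM in OE-YWHAB and 19.5 FPKM in Vector Control (ratio 1.01, interval 0.849 to 1.20). Its chaperone HJURP was at 141 FPKM in OE-YWHAB and 110.2 FPKM in Vector Control (ratio 1.28, interval 1.21 to 1.35), so the chaperone but not the histone was higher beyond counting error.

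The NDC80 complex, the rod that grips microtubules, had like ratios in all its subunits. NDC80 was at 56.9 FPKM in OE-YWHAB and 43.2 FPKM in Vector Control (ratio 1.32, interval 1.17 to 1.48), and its partner NUF2 at 92.1 FPKM in OE-YWHAB and 72.1 FPKM in Vector Control (ratio 1.28, interval 1.17 to 1.39). SPC24 was at 66.3 FPKM in OE-YWHAB and 48.6 FPKM in Vector Control (ratio 1.36, interval 1.22 to 1.52), and SPC25 at 24.4 FPKM in OE-YWHAB and 18.8 FPKM in Vector Control (ratio 1.30, interval 1.08 to 1.58). All 4 intervals overlap one another. The share of each subunit in the summed FPKM was nearly the same in both libraries, from SPC25 with 10.2% in OE-YWHAB and 10.3% in Vector Control to NUF2 with 38.4% in OE-YWHAB and 39.5% in Vector Control.

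Spindle motors and microtubule proteins had a median of 0.33 over the 8 measured of 9 genes. ASPM (ENSG00000066279, chromosome 1, from 197084128 to 197146694, minus strand), the spindle pole protein, had the 2nd largest difference of all members, at 37.4 FPKM in OE-YWHAB and 20.3 FPKM in Vector Control (ratio 1.84, interval 1.73 to 1.95). KIF11, the motor Eg5 that pushes the poles apart, was at 26.1 FPKM in OE-YWHAB and 18.1 FPKM in Vector Control (ratio 1.44, interval 1.34 to 1.56). KIF4A, a chromosome-bound kinesin, was at 47.7 FPKM in OE-YWHAB and 35.3 FPKM in Vector Control (ratio 1.35, interval 1.25 to 1.46), with 13.7% of its 50-base stretches also present elsewhere, nearly all in KIF4B. The microtubule depolymerase KIF2C was at 123 FPKM in OE-YWHAB and 101.5 FPKM in Vector Control (ratio 1.21, interval 1.14 to 1.30). The others were closer to equal or less deep. HMMR, a hyaluronan receptor that also binds the spindle, was at 9.10 FPKM in OE-YWHAB and 6.71 FPKM in Vector Control (ratio 1.36, interval 1.09 to 1.69). DLGAP5, encoding HURP, was at 116 FPKM in OE-YWHAB and 95.7 FPKM in Vector Control (ratio 1.21, interval 1.14 to 1.29), and CKAP2, a microtubule-associated protein, at 74.8 FPKM in OE-YWHAB and 65.2 FPKM in Vector Control (ratio 1.15, interval 1.08 to 1.22). STMN1, stathmin, which binds free tubulin, was at 237 FPKM in OE-YWHAB and 213 FPKM in Vector Control (ratio 1.11, interval 1.07 to 1.17).

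NUSAP1 and PRC1 were nearly empty in both libraries and gave no usable comparison. NUSAP1, a microtubule bundler, was at 0.288 FPKM in OE-YWHAB and 0.268 FPKM in Vector Control, from 6 fragments in OE-YWHAB and 5 in Vector Control. PRC1, the bundler of the central spindle, was at 0.342 FPKM in OE-YWHAB and 0.305 FPKM in Vector Control, from 5 fragments in OE-YWHAB and 4 in Vector Control. Every other member had at least 140 fragments in each library. GENCODE 29 places 62.2% of the exon bases of NUSAP1 also in AC087721.2, a gene model on the same strand with 0 fragments in both libraries. For PRC1 it is 57.6%, with AC068831.7, which had 161 fragments in OE-YWHAB and 115 in Vector Control. How fragments inside 2 gene models were counted is not given in the sources used here, and the part of the overlap in these low values was not tested. BUB1B, with 10.2% of its exon bases in the joint model BUB1B-PAK6, had 1121 fragments in OE-YWHAB and 704 in Vector Control.

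Cytokinesis genes had a median of 0.36 over the 6 measured of 7. KIF23 and RACGAP1 form centralspindlin, which recruits the exchange factor ECT2 to the cell equator. KIF23 was at 57.3 FPKM in OE-YWHAB and 37.7 FPKM in Vector Control (ratio 1.52, interval 1.41 to 1.64), while RACGAP1 was at 196 FPKM in OE-YWHAB and 162 FPKM in Vector Control (ratio 1.21, interval 1.14 to 1.29). The intervals of the partners do not meet, but the gap of 0.31 between their differences was 0.16 after the length and GC correction. ECT2 was at 119.9 FPKM in OE-YWHAB and 88.5 FPKM in Vector Control (ratio 1.36, interval 1.28 to 1.44). ANLN, anillin, which links actin and septins in the contractile ring, was at 298 FPKM in OE-YWHAB and 212 FPKM in Vector Control (ratio 1.41, interval 1.35 to 1.47). KIF20A, a kinesin of the midzone, was at 121 FPKM in OE-YWHAB and 108 FPKM in Vector Control (ratio 1.12, interval 1.05 to 1.19). CEP55, which acts in the final cut, was at 92.3 FPKM in OE-YWHAB and 83.6 FPKM in Vector Control (ratio 1.10, interval 1.03 to 1.19).

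Chromosome structure genes stood furthest apart of the roles with more than 2 genes, with a median of 0.51 over 7. After the length and GC correction their median was 0.492, below the 0.509 of the centromere and kinetochore genes. MKI67 (ENSG00000148773, chromosome 10, from 128096659 to 128126385, minus strand), the Ki-67 antigen that coats mitotic chromosomes, was at 146 FPKM in OE-YWHAB and 68.8 FPKM in Vector Control, from 10588 fragments in OE-YWHAB and 4463 in Vector Control. Its ratio was 2.13 (interval 2.05 to 2.20), and 0.604% of all genes had a difference as large. The next member, ASPM, has an interval that ends below that of MKI67. The gap of 0.23 between their differences was 0.18 after the length and GC correction. With that correction the next member was the condensin gene SMC4, at 0.85 against 0.97 for MKI67. The condensin I complex, which compacts chromosomes, has the SMC2 and SMC4 arms and the subunits NCAPD2, NCAPG and NCAPH. SMC4 was at 131 FPKM in OE-YWHAB and 75.7 FPKM in Vector Control (ratio 1.73, interval 1.62 to 1.85), and SMC2 at 34.2 FPKM in OE-YWHAB and 20.3 FPKM in Vector Control (ratio 1.68, interval 1.55 to 1.82). Of the regulatory subunits, NCAPH was at 27.5 FPKM in OE-YWHAB and 19.0 FPKM in Vector Control (ratio 1.45, interval 1.30 to 1.61), NCAPG at 67.9 FPKM in OE-YWHAB and 49.2 FPKM in Vector Control (ratio 1.38, interval 1.28 to 1.49) and NCAPD2 at 406 FPKM in OE-YWHAB and 317 FPKM in Vector Control (ratio 1.28, interval 1.23 to 1.32). The intervals of the arms lie above those of NCAPG and NCAPD2, so the ratios of these genes differed by more than counting error. The RNA of a gene does not show how much of its protein is in this complex. SMC4 shares 25.6% of its exon bases with IFT80 and TRIM59 and NCAPG 33.1% with LCORL, all on the opposite strand. TOP2A, the topoisomerase that untangles sister chromosomes, was the most abundant member at 487 FPKM in OE-YWHAB and 404 FPKM in Vector Control (ratio 1.21, interval 1.17 to 1.24).

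**Figure D3:**
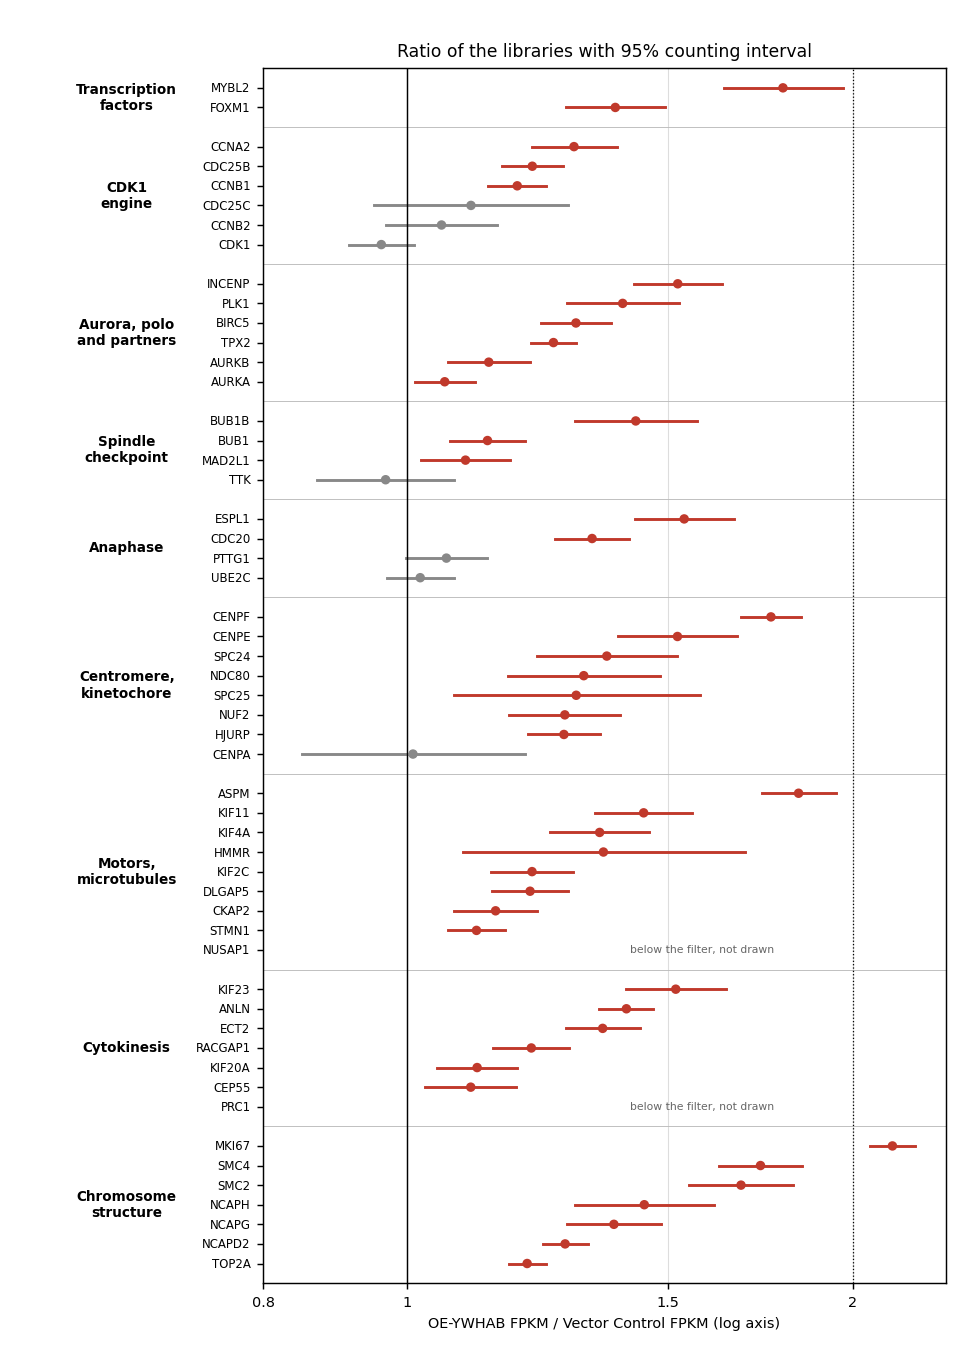
Ratio of FPKM, OE-YWHAB over Vector Control (horizontal log axis), of the 51 measured mitotic genes by role, with bars for the 95% counting interval (1 library per group, so the bars hold no replicate error). Red intervals lie above equal levels (44 genes) and grey ones include them (7 genes); MKI67 alone lies right of the dotted line at a ratio of 2.

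The size of the difference went with transcript length, in the mitotic genes as in the whole library. Among protein-coding genes the median difference was -0.07 in the shortest of 5 equal groups by longest annotated transcript and 0.14 in the longest. For the members in these groups it was 0.18 (11 genes), 0.31 (14), 0.33 (11), 0.45 (10) and 0.81 (5). The median of the members thus lay above that of genes of like length in each group. Across the 51 members the Spearman rho with the longest transcript was 0.60 and with GC content 0.03 (a description across genes of the same 2 libraries; for all protein-coding genes the rho with length was 0.23). MKI67, ASPM, CENPF and CENPE have longest transcripts of 12678, 10887, 10307 and 8612 nt and are among the 10 largest differences. By the longest transcript, MYBL2 breaks the pattern, with 2704 nt and the 3rd largest difference. By mean transcript length it does not: at 2671.5 nt it lies in the longest of 5 equal groups, which starts at 2521.67 nt. In the groups by mean length the medians of the members were 0.26, 0.22, 0.27, 0.46 and 0.60, from shortest to longest.

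After a smooth trend in length and GC content over all genes compared was subtracted, the mitotic genes stayed higher and MKI67 lost its 2-fold call. With the mean transcript length the median of the members was 0.38 and all 51 differences were above 0, CDK1 at 0.05 and TTK at 0.05 included; MKI67 was at 0.97. With the longest transcript, an alternative chosen after the data had been seen, the median was 0.42 and MKI67 was at 0.91. The part of RNA quality or library preparation in this length trend was not tested.

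**Figure D4:**
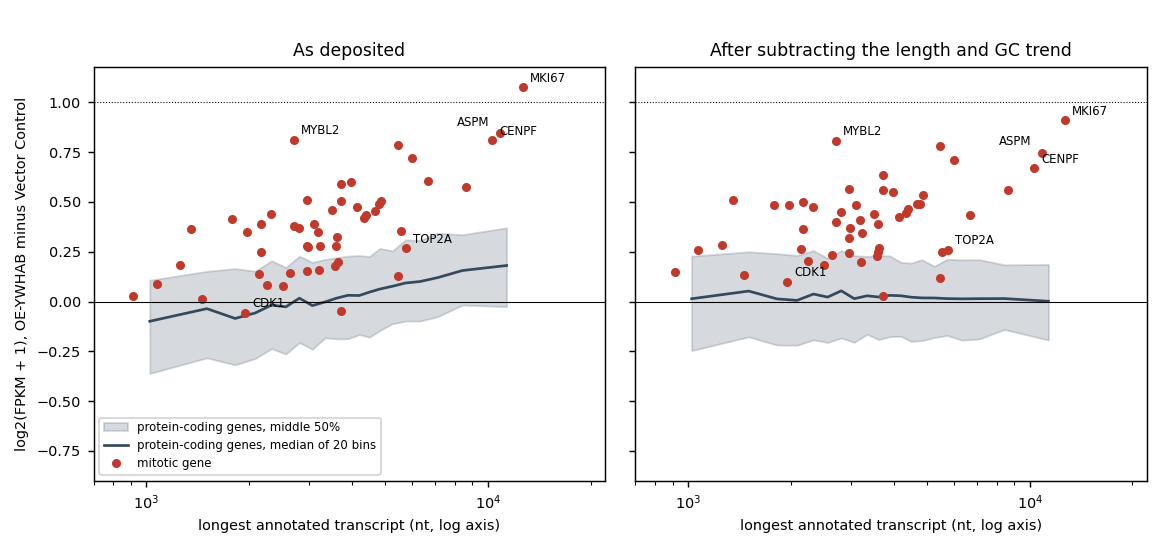
Difference in log2(FPKM + 1), OE-YWHAB minus Vector Control (vertical axis), against the longest annotated transcript (horizontal log axis) for the 51 measured mitotic genes (points) and for protein-coding genes (line, median of 20 bins; band, middle 50%), as deposited (left) and after the trend in longest transcript and GC content was subtracted (right). MKI67 lies above the dotted 2-fold line on the left and below it on the right, where all 51 mitotic genes lie above 0.

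Other genes of the mitotic pathway were described in lists by role. The counts of this and the later lists stand beside the shares over all genes compared. There 27.8% of intervals lay above equal levels and 21.8% below, and 0.686% of genes were 2-fold higher and 1.97% lower. Among genes at least as deep as the shallowest measured member, 36.7% of intervals lay above and 25.1% below. Of 51 further kinesin, kinetochore and spindle genes, 50 were measured and 0 were 2-fold higher or lower. Their median was 0.33, with 32 counting intervals above equal levels and 2 below. The kinesins KIF20B (25.8 FPKM in OE-YWHAB and 15.0 FPKM in Vector Control; ratio 1.72) and KIF18B (85.3 FPKM in OE-YWHAB and 52.3 FPKM in Vector Control; ratio 1.63) and the citron kinase CIT of cytokinesis (86.0 FPKM in OE-YWHAB and 54.8 FPKM in Vector Control; ratio 1.57) differed most. The 2 below were the checkpoint gene MAD1L1 (10.3 FPKM in OE-YWHAB and 16.3 FPKM in Vector Control) and the centrosome kinase NEK2 (66.9 FPKM in OE-YWHAB and 74.6 FPKM in Vector Control), both named after their values were seen. Cohesin and condensin II genes had a median of 0.35 over 15, with 14 intervals above and 0 below. STAG1, a cohesin subunit with 21.2% of its exon bases opposite PCCB, was at 10.4 FPKM in OE-YWHAB and 5.76 FPKM in Vector Control (ratio 1.80), SMC1A, a cohesin arm, at 84.2 FPKM in OE-YWHAB and 50.3 FPKM in Vector Control (ratio 1.67), and the cohesin acetyltransferase ESCO2 at 10.7 FPKM in OE-YWHAB and 7.21 FPKM in Vector Control (ratio 1.48).

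The 17 anaphase-promoting complex genes had a median of 0.09, with 7 intervals above and 0 below. ANAPC2, its cullin, was at 81.5 FPKM in OE-YWHAB and 57.8 FPKM in Vector Control (ratio 1.41), the activator FZR1 at 81.6 FPKM in OE-YWHAB and 63.3 FPKM in Vector Control (ratio 1.29) and CDC27 at 148 FPKM in OE-YWHAB and 122 FPKM in Vector Control (ratio 1.21). The constitutive centromere proteins, of which 13 of 14 were measured, had a median of 0.13 with 4 intervals above and 0 below, led by CENPK at 40.6 FPKM in OE-YWHAB and 30.3 FPKM in Vector Control, CENPU at 46.1 FPKM in OE-YWHAB and 35.2 FPKM in Vector Control, and CENPM at 49.2 FPKM in OE-YWHAB and 38.8 FPKM in Vector Control. Among 13 kinases and phosphatases that set CDK1 activity the median was 0.11, with 7 above and 1 below. PKMYT1, which inhibits CDK1 and has 31.6% of its exon bases opposite KREMEN2 and PAQR4, was at 41.3 FPKM in OE-YWHAB and 22.8 FPKM in Vector Control (ratio 1.81), and CDC25A, which activates CDKs, at 15.9 FPKM in OE-YWHAB and 10.1 FPKM in Vector Control (ratio 1.57). ENSA, an inhibitor of the exit phosphatase, was at 149 FPKM in OE-YWHAB and 121 FPKM in Vector Control (ratio 1.23). In none of these 3 lists was a gene 2-fold higher or lower. For the anaphase-promoting complex and the constitutive centromere proteins, the counts of intervals above are near the shares of 27.8% over all genes and 36.7% over deep ones.

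Of the MuvB, DREAM and E2F factors, 16 of 17 were measured, with a median of 0.24, 10 intervals above and 2 below, and 0 past 2-fold on the log2(FPKM + 1) scale. E2F2, an activator, was at 2.09 FPKM in OE-YWHAB and 0.591 FPKM in Vector Control (83 fragments in OE-YWHAB and 21 in Vector Control), a ratio of 3.54 (interval 2.17 to 6.02) but a difference of 0.96 after 1 FPKM was added. The pocket protein RBL1 was at 12.2 FPKM in OE-YWHAB and 6.36 FPKM in Vector Control (ratio 1.93) and the repressor E2F8 at 7.44 FPKM in OE-YWHAB and 3.93 FPKM in Vector Control (ratio 1.89). E2F7, the close relative of E2F8, lay on the other side, at 63.6 FPKM in OE-YWHAB and 91.2 FPKM in Vector Control (ratio 0.697, interval 0.658 to 0.738), named after its values were seen.

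Replication genes had a higher median difference than the mitotic genes, and G1 and housekeeping genes a lower one. The 45 DNA replication genes had a median of 0.47, with 2 of them 2-fold higher, 0 lower, 32 intervals above and 3 below. TYMS, thymidylate synthase, was at 7.05 FPKM in OE-YWHAB and 2.19 FPKM in Vector Control. It rests on 97 fragments in OE-YWHAB and 27 in Vector Control (ratio 3.22, interval 2.08 to 5.13). UHRF1, a DNA methylation factor, was at 53.8 FPKM in OE-YWHAB and 23.9 FPKM in Vector Control, and the polymerase subunit POLE at 90.01 FPKM in OE-YWHAB and 45.8 FPKM in Vector Control (ratio 1.96). The 11 measured of 14 G1 cyclins, G1 kinases and CDK inhibitors had a median of 0.03, with 3 above and 2 below and 0 past 2-fold. CDK6, a G1 kinase, was at 42.2 FPKM in OE-YWHAB and 23.6 FPKM in Vector Control (ratio 1.79), cyclin D1 (CCND1) at 821 FPKM in OE-YWHAB and 549 FPKM in Vector Control, and the inhibitor p21 (CDKN1A) at 166 FPKM in OE-YWHAB and 257 FPKM in Vector Control (ratio 0.646, interval 0.618 to 0.677). The 7 genes encoding 14-3-3 proteins had a median of 0.14 with 0 past 2-fold; after YWHAB, SFN (87.8 FPKM in OE-YWHAB and 71.5 FPKM in Vector Control) and YWHAH (82.9 FPKM in OE-YWHAB and 69.2 FPKM in Vector Control) differed most. The 26 housekeeping genes had a median of -0.03, with 10 intervals above, 9 below and 0 past 2-fold, so an interval off equal levels is common in genes this deep. B2M and EMC7 were among those that differed most, by -0.87 and -0.49. No difference between lists was tested.

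**Figure D5:**
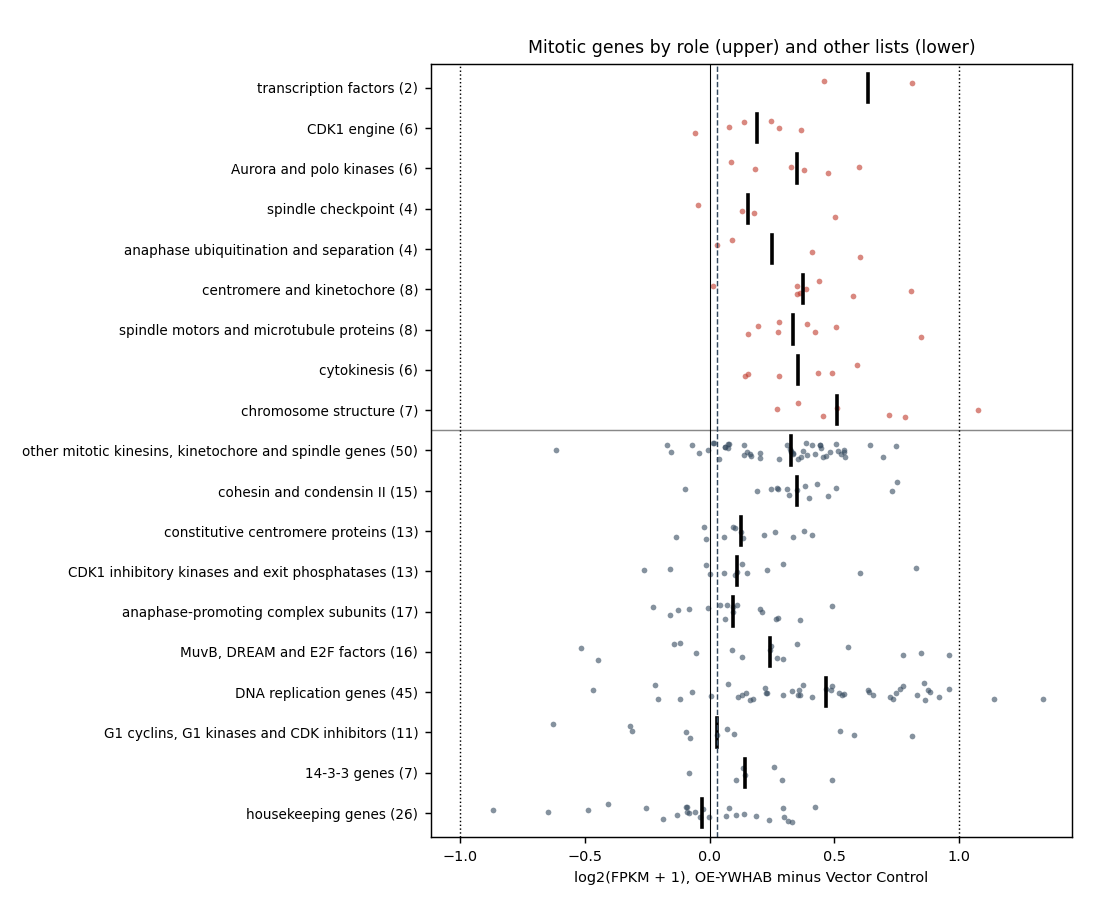
Difference in log2(FPKM + 1), OE-YWHAB minus Vector Control (horizontal axis), for each measured gene (points) and the median (black bar) of the 9 roles of the mitotic genes (upper block) and of 10 other lists (lower block), with the number of measured genes in brackets. The dashed line is the median of all genes, 0.03, and dotted lines mark 2-fold. In these differences, not corrected for length, chromosome structure genes have the highest median of the roles with more than 2 genes.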

How the data were processed

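The authors deposited FPKM values per Ensembl gene for both libraries, per the labels of the columns. HISAT2 2.0.5 and the hg38 build are listed, per the submitters' processing notes. Not given in the sources used here: the counter, annotation release, strand setting, multi-mapping rule and filters. Symbols, lengths and coordinates came from GENCODE 29 (GRCh38, the assembly hg38 denotes), which held 96.3% of the identifiers. Whole fragments were worked out from the steps of the FPKM values (whole within a relative tolerance of 1e-10 for 26769 of 26770 genes above 0). For 8 members the length is a multiple chosen nearest to the annotated mean, on which the interval but not the ratio depends. For most members the length worked out from the FPKM values was close to the annotated mean transcript length. There were exceptions, such as NCAPH with 2317 nt against a mean of 1850.71 nt. The order of levels between genes depends on the length used. The difference is log2(FPKM + 1), which understates changes of low genes, over genes averaging 1 FPKM or more; 2-fold means a difference of at least 1. Intervals are Clopper-Pearson and cover counting error only, since PCR copies are not independent. With 1 library per group no test was run. All members, and the 3 largest differences of each other list plus any past 2-fold, were named by rule, except 1 gene that is not reported here. Members and lists were chosen with earlier results of these data known. The trend fit and fragment recovery were tested on simulated data. Scripts ran in Python 3.11.15 with numpy 2.4.6, pandas 2.3.3 and scipy 1.17.1.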

Additional observations from a re-analysis of the deposited data

How the results depend on the processing

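With 1 library per group no replicate could be left out, and no paired analysis was possible because each group has a single library. The median of the mitotic genes kept its sign under every alternative run: 0.37 with a pseudocount of 0.1 FPKM, 0.35 with no filter (all 53 genes), 0.36 at a 5 FPKM filter, 0.40 with both libraries rescaled to equal FPKM totals, 0.32 when well-expressed genes (10 FPKM and up) were centred on a log2 ratio of 0, 0.38 after the planned length and GC correction, and, chosen after the data had been seen, 0.42 with the longest transcript and 0.34 over the 42 members with little exon overlap or shared sequence. The count of 2-fold higher members was 1 except under both length corrections, where it was 0, since MKI67 came to 0.97 and 0.91; the count of lower members was 0 throughout. This centring turned CENPA to -0.03 and UBE2C to -0.01, and the corrections turned CDK1 (0.05 and 0.10) and TTK (0.05 and 0.03) positive; all 4 genes were within counting error. Over all genes the main counts of 92 higher and 265 lower became 222 and 471 with a pseudocount of 0.1 FPKM, and 40 and 112 at a 5 FPKM filter; with no filter 155 were higher. Depth limits HMMR, CENPA, SPC25 and CDC25C most among the measured members.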

Other observations

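The order of the mitotic genes by level depends on which length stands for a gene. Counted per kilobase of the longest annotated transcript, UBE2C was the highest member in both libraries (246 in OE-YWHAB and 241 in Vector Control, in FPKM recomputed with that length), and TOP2A, the highest by FPKM, ranked 5 in OE-YWHAB and 7 in Vector Control. NCAPD2, ranked 2 in OE-YWHAB and 3 in Vector Control by FPKM, came to 11 in both. MKI67, ranked 16 in OE-YWHAB and 27 in Vector Control by FPKM, ranked 17 in OE-YWHAB and 27 in Vector Control by this count. Ratios between the libraries do not depend on the length.

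All 5 genes of the mitotic members and the 6 further mitotic lists that fell below the filter share at least 25% of their exon bases with other gene models. The minimum was chosen after the values were seen and counts each strand alone. Of the 175 measured genes of the same lists 7 do, and 77 share any. The depth of the 7 ran widely. Picked after the values were seen, ANAPC15 had 40 fragments in OE-YWHAB and 33 in Vector Control, and SMC4 2731 in OE-YWHAB and 1413 in Vector Control. Besides NUSAP1 and PRC1 the genes below the filter are OIP5 (12 fragments in OE-YWHAB and 6 in Vector Control, 38.0% of exon bases shared with OIP5-AS1 on the opposite strand), CENPP (43 fragments in OE-YWHAB and 51 in Vector Control, 42.7% on the opposite strand) and LIN37 (5 fragments in OE-YWHAB and 7 in Vector Control, 26.7% on the same strand and 41.8% on the opposite strand). These genes were named after their values were seen, and the part of the overlap in their low values was not tested.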
